A study of Mus musculus with 2 samples.

Results

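The genes of the DNA replication machinery were followed on 2 arrays of mouse CD8+ T cells. The set was chosen by name and not by measured values: Mcm2 to Mcm8, Mcm10, the numbered Gins, Orc, Rfc, Rpa, Pola, Pold and Prim genes, Pole and its numbered partners, and Pcna, Cdc6, Cdc45, Cdt1, Gmnn, Fen1, Lig1, Rrm1, Rrm2, Tyms and Tk1. These names cover 49 genes, of which 48 had at least 1 probe set that named no other gene, among 22180 such genes in all. They were read by 53 probe sets. The missing gene, Rfc4, was read only together with Eif4a2.

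Naive CD8+ T cells had been activated with beads carrying antibodies to CD3 and CD28, in recombinant human interleukin-2 at 100 U/mL, and were expanded to day 13. The control culture received dimethyl sulfoxide (DMSO), the solvent of the drug. The treated culture received bezafibrate, a lipid-lowering fibrate and agonist of the PPAR nuclear receptors, at 30 µM during the whole culture. The labels name no strain, genotype, age or number of animals, and no day on which RNA was taken. Each group is 1 array, so no value below has a replicate error or a p-value, and each ratio compares 2 arrays and not 2 conditions. The labels give day 13 for proliferation assays, to which the replication genes relate; those assays were not analysed here.

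Replication starts where the origin recognition complex (ORC) marks the DNA. CDC6 and CDT1 then load the ring-shaped MCM2-7 helicase in G1, and CDC45 and GINS turn that ring into the moving helicase at the entry into S phase. Polymerase alpha with its primase lays down primers, polymerases epsilon and delta extend the leading and lagging strands on the PCNA clamp, and RPA covers the exposed single strand. Most of these genes are transcribed under E2F factors when a resting lymphocyte is stimulated to divide, and their mRNAs are widely used as a sign of cycling cells.

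Because many of the genes share E2F control, the RefSeq promoter windows (assembly GRCm38.p6, 250 bases before to 50 after each start) were searched on both strands for the E2F letters TTTGGCGC, TTTCCCGC, TTTCGCGC and TTTGCCGC. Of the 48 genes, 40 matched an entry by gene number. Gmnn, Mcm4, Gins1, Gins2, Gins4, Prim2, Pole and Rfc2 had none. The E2F letters stood in 17 of the 40 (42.5%), against 3.29% of 17492 protein-coding genes, and in 18 of 49 windows (36.7%) against 2.26% of 32851 windows. The 17 were Cdc6, Cdt1, Gins3, Lig1, Mcm3, Mcm5, Mcm6, Mcm7, Mcm8, Orc1, Orc3, Pola1, Pold1, Pold3, Pole2, Pole4 and Rfc3. The CCAAT box (CCAAT) stood in 25 of the 40 (62.5%) against 42.3% of coding genes, and the CHR element of late cell cycle genes (TTTGAA) in 5 (12.5%) against 18.5%. A match is a description of these letters and not a measured binding site.

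Shown are the 5 windows with at least 2 E2F matches, together with those of the genes with the highest and the lowest ratio, Pola1 and Pold4. Each is written 5′ to 3′ on the strand of its gene with the E2F letters in capitals. They lie at chrX:93632106-93632405, minus strand (Pola1), chr1:20820263-20820562, minus strand (Mcm3), chr5:138171834-138172133, minus strand (Mcm7), chr1:128359656-128359955, minus strand (Mcm6), chr8:75109259-75109558, plus strand (Mcm5), chr5:151651159-151651458, minus strand (Rfc3) and chr19:4231643-4231942, plus strand (Pold4).
Pola1: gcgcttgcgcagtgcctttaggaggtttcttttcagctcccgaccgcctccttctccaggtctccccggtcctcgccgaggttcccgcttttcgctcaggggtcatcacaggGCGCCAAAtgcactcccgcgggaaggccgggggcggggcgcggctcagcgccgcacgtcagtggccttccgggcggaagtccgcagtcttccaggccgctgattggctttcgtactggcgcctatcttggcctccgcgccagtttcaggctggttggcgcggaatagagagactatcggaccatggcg
Mcm3: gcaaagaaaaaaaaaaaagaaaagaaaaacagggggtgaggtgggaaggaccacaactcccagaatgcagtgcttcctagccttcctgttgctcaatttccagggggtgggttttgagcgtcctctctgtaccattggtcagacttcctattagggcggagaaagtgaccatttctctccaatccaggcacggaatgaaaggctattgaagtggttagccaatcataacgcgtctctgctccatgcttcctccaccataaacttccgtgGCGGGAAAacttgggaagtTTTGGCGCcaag
Mcm7: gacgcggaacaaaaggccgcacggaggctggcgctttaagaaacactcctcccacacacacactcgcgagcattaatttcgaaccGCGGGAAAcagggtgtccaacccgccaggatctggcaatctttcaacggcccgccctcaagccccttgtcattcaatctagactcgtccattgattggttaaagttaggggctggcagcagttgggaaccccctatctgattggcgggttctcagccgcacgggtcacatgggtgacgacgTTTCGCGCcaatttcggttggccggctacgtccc
Mcm6: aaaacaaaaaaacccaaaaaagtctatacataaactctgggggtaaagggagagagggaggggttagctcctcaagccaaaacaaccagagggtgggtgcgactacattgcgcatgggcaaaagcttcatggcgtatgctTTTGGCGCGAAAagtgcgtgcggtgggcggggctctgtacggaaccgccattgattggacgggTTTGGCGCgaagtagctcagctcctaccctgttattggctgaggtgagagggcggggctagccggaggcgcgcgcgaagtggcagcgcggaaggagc
Mcm5: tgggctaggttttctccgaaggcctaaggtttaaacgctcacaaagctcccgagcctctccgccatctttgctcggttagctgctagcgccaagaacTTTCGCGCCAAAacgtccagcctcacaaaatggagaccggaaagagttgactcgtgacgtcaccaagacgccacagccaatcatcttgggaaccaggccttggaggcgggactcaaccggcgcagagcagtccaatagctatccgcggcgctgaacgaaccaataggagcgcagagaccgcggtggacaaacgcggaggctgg
Rfc3: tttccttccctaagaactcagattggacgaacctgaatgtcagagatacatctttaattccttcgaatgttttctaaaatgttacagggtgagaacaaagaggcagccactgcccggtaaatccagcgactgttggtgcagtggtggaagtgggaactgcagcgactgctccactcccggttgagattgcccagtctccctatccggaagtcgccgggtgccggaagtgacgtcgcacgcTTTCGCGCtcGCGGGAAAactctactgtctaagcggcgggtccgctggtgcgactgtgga
Pold4: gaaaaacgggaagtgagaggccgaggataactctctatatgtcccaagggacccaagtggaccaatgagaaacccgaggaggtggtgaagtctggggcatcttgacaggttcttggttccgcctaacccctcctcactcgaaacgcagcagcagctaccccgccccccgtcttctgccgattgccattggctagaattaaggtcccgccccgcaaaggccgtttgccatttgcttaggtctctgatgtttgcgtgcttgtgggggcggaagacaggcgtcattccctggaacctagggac
In Mcm5 the matches on opposite strands overlap in a single palindrome-like stretch 153 bases before the start, and Mcm6 has such a stretch 110 bases before the start and a further match at 47. Rfc3 has its matches side by side at the start, whereas Pold4 has none and holds 2 CCAAT boxes. The order of the lines is that of the log2 ratio, so the same letters stand in promoters of genes that were higher and of genes that were lower with bezafibrate.

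All 48 genes were measured above the floor, that is the median level of all named genes, a log2 signal of 4.88 for control and 4.85 for bezafibrate. Control signals lay between 5.95 and 10.40 and bezafibrate signals between 6.07 and 10.39. The ratio given throughout is the log2 signal with bezafibrate minus that in control. It was above 0 in 25 genes (52.1%), below 0 in 22 (45.8%) and 0 in 1, beside 48.5% higher and 49.7% lower among the 11438 genes above the floor. The median ratio was 0.02 and the mean 0.00, beside a median of 0.00 over all genes above the floor. In bulk RNA a different share of cycling cells and a different amount of mRNA per cycling cell cannot be told apart.

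The replication genes also lay close together. Their ratios had a standard deviation across genes of 0.17, beside 0.20 for the 7367 genes whose mean signal fell in the same range. Genes were counted as different where the brighter array exceeded the dimmer by 25% on the linear scale, a ratio of 0.3219 in size. By this limit 1 gene was higher (2.08%, beside 5.83% of all genes above the floor) and 1 was lower (2.08%, beside 6.33%). These were Pola1 and Pold4. After quantile normalization of the columns 0 were higher and 3 lower. After adjustment for level and gene length (described with the length results) 2 were higher and 0 lower. The share of all genes was counted in the deposited values only, so these other counts have no background beside them. Just short of the limit were Rfc1 (0.3204), Mcm3 (0.3203), Rpa3 (−0.3176), Gins4 (−0.3155) and Gins1 (0.3139). At 1.5-fold, the limit named in the plan with 25% beside it, 0 genes were higher and 0 lower. Of all genes 0.664% and 0.525% were. In both directions together and in the deposited values, 4.17% of the replication genes passed the 25% limit. Of the genes in their signal range 10.1% did.

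**Figure D1:**
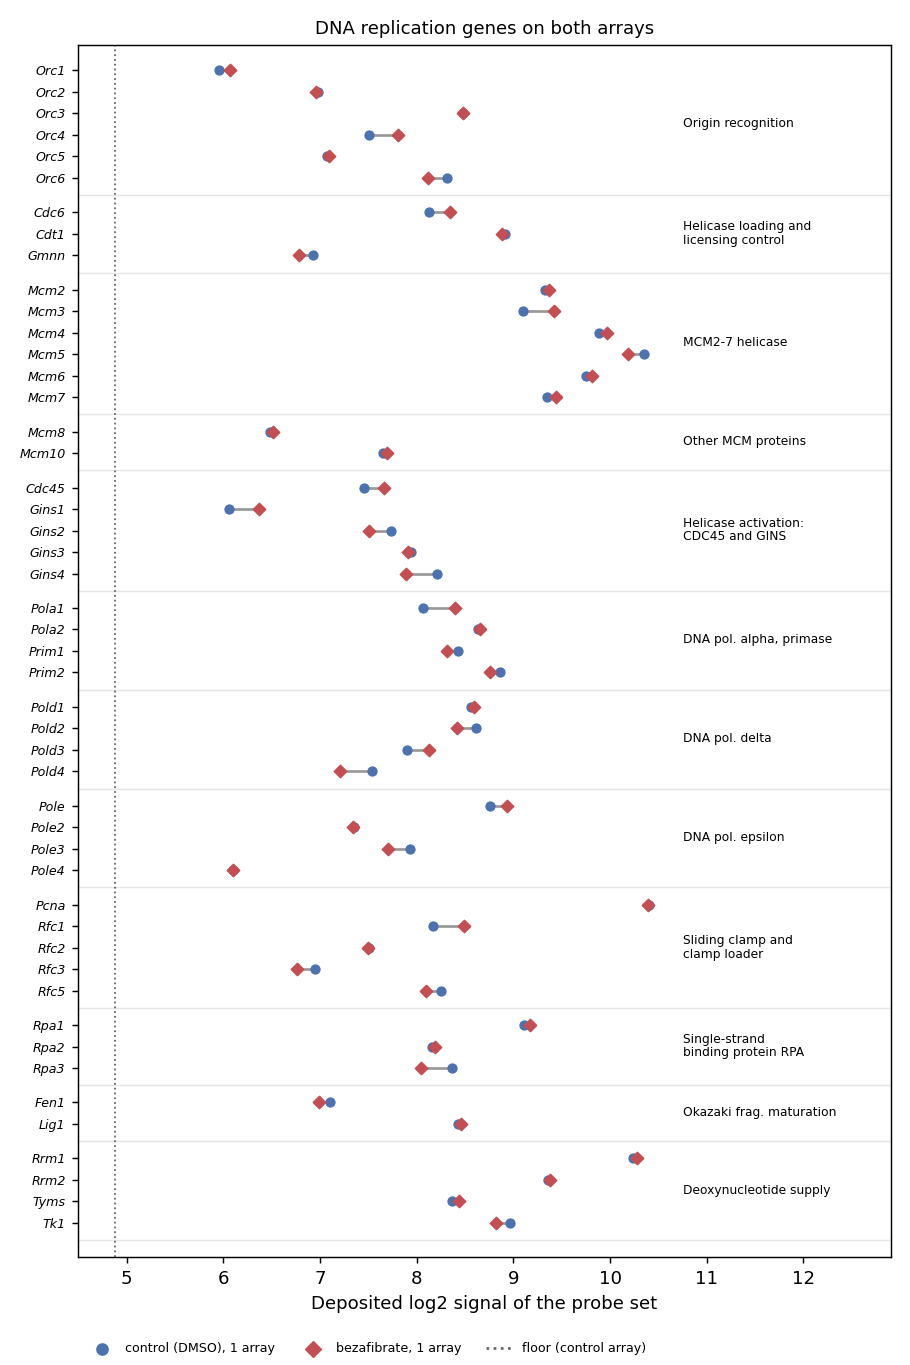
Deposited log2 signal (horizontal axis) of the probe set that stands for each of the 48 replication genes, with the control array as circles and the bezafibrate array as diamonds, joined by a line and grouped by role; the dotted line is the floor of the control array, 4.88. All symbols lie to the right of the floor, and the widest gaps, in Pola1 and Pold4, are 0.34 and 0.33 wide.

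In the deposited values the origin recognition genes were spread evenly around 0. Of the 6, 3 were higher, 2 lower and 1 equal, with a median of 0.01. Orc4, an ATPase subunit of the ring, was at 7.51 in control and 7.81 with bezafibrate, the highest of the group with a ratio of 0.30. Orc6, the subunit outside that ring, was lowest, at 8.31 and 8.11 (ratio −0.20). Orc1, the ATPase that changes with the cell cycle, was at 5.95 and 6.07. Orc2 (6.98 and 6.96) and Orc5 (7.07 and 7.09) barely differed. Orc3 held exactly the same value, 8.48, on both arrays, as did 5.63% of all probe sets with a value. Once adjusted for level and gene length, the median of the group was −0.07. Orc4 (0.22) and Orc1 (0.07) were then above 0. Orc2 (−0.09), Orc3 (−0.08), Orc5 (−0.07) and Orc6 (−0.12) were below 0.

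Among the factors that load the helicase, Cdc6 was higher and the inhibitor gene lower. Cdc6, the loading ATPase, was at 8.13 and 8.34 (ratio 0.21). Cdt1, which brings the MCM ring to ORC, was at 8.91 and 8.88. Gmnn encodes geminin, which blocks CDT1 once S phase has begun, and was at 6.93 and 6.78 (ratio −0.15). Once adjusted for level and gene length, Cdc6 was at 0.23, Cdt1 at 0.10 and Gmnn at −0.05.

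The MCM2-7 helicase was higher with bezafibrate in 5 of its 6 genes (83.3%, beside 48.5% of all genes above the floor). The median was 0.07 (0.13 once adjusted for level and gene length), and 0 of the 6 passed the 25% limit. Mcm3 stood out from the other 5, at 9.10 in control and 9.42 with bezafibrate (ratio 0.32). Mcm5, which with Mcm2 forms the gate of the ring, was the exception at 10.35 and 10.19 (ratio −0.16). The MCM2-7 subunits act as one hexamer with a single copy of each, and their mRNA ratios here ran from −0.16 to 0.32. Mcm2 was at 9.33 and 9.37, Mcm4 at 9.89 and 9.97, and Mcm6 at 9.75 and 9.81. Mcm7 was at 9.34 and 9.44 (ratio 0.10). All 6 ratios kept their sign under each alternative processing. Outside the ring, Mcm10, which helps the helicase to start, was at 7.65 and 7.69, and Mcm8, a relative with a role in recombination, at 6.48 and 6.51.

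CDC45 and the GINS genes, which complete the active helicase, divided. Gins1 was higher, at 6.05 and 6.37 (ratio 0.31), and so was Cdc45, at 7.46 and 7.67 (0.21). Gins4 was lower, at 8.21 and 7.89 (−0.32), and so was Gins2, at 7.74 and 7.51 (−0.22). These 4 ratios kept their sign under each alternative. The GINS proteins form a tetramer with equal copies, so the genes of this one complex spanned nearly the whole range of the 48. Gins3, its last subunit, was at 7.94 and 7.91.

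In the deposited values the gene of the largest subunit was the higher or among the higher ones within each replicative polymerase. A small accessory subunit was lowest in the delta and epsilon enzymes. Pola1 (probe set 17543150), the catalytic subunit of polymerase alpha, was at 8.06 in control and 8.40 with bezafibrate, 1.26-fold higher and the highest ratio of all 48. Its regulatory partner Pola2 was at 8.63 and 8.65. The primase genes were lower, with the catalytic Prim1 at 8.42 and 8.31 (−0.11) and the large subunit Prim2 at 8.86 and 8.76 (−0.10).

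For polymerase delta, the lagging-strand enzyme, the catalytic Pold1 was at 8.56 and 8.59 (ratio 0.02). Pold3, the subunit that tethers PCNA and supports break-induced synthesis, was at 7.90 and 8.13 (0.23). Pold2 was at 8.61 and 8.42 (−0.20). Pold4 (probe set 17356202), the smallest subunit, which is degraded after DNA damage, was at 7.53 and 7.21, which gave the lowest ratio of all 48 (−0.33). The delta genes had a median of −0.09, from 2 genes higher and 2 lower, which turned to 0.01 once adjusted for level and gene length.

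For polymerase epsilon, the leading-strand enzyme, the catalytic Pole was at 8.76 and 8.93 (ratio 0.18). Pole3, a histone-fold subunit that is shared with a chromatin remodelling complex, was at 7.93 and 7.70 (−0.23). Its dimer partner Pole4 (6.10 on both arrays) and Pole2 (7.35 and 7.34) were nearly equal. Once adjusted for level and gene length, Pole was at 0.10, and Pole2, Pole3 and Pole4 were each at −0.05.

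In the deposited values the sliding clamp was level and the clamp loader split. Pcna, the clamp and a common proliferation marker, was at 10.40 and 10.39. Rfc1, the large subunit of the loader, was at 8.17 and 8.49 (ratio 0.32). The small subunits were lower, with Rfc3 at 6.95 and 6.76 (−0.18), Rfc5 at 8.26 and 8.10 (−0.16) and Rfc2 at 7.51 and 7.50. The probe set that reads Rfc4 together with Eif4a2 was at 8.23 and 8.20. With the adjustment for level and length, Rfc2 turned to 0.02 and Pcna to 0.12.

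Of the RPA genes only the smallest subunit was lower in the deposited values. Rpa1, the large DNA-binding subunit, was at 9.11 and 9.17, and Rpa2 at 8.16 and 8.19. Rpa1 turned to −0.08 with its probe sets averaged and to −0.02 once adjusted for level and length. Rpa3, the small subunit that holds the trimer together, was at 8.36 and 8.05 (ratio −0.32). A second probe set of Rpa3 gave the same difference, at 7.19 and 6.86 (−0.32). The flap endonuclease gene Fen1, which trims the ends of Okazaki fragments, was also read alike by its probe sets, at 7.10 and 6.99 and at 5.70 and 5.59, with a ratio of −0.12 and −0.11. Lig1, the ligase that seals the fragments, was at 8.43 and 8.46.

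Deoxynucleotide supply differed little in the deposited values. Rrm1, the large subunit of ribonucleotide reductase, was at 10.24 and 10.28, and Rrm2, the subunit that limits its activity in S phase, at 9.36 and 9.38. Tyms, thymidylate synthase, was at 8.36 and 8.44. Tk1, the thymidine kinase of the salvage pathway, was at 8.96 and 8.82 (ratio −0.14). The group had a median of 0.03, with 3 genes higher and 1 lower. Rrm2 moved to 0.15 once adjusted for level and length and to −0.13 with its probe sets averaged.

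**Figure D2:**
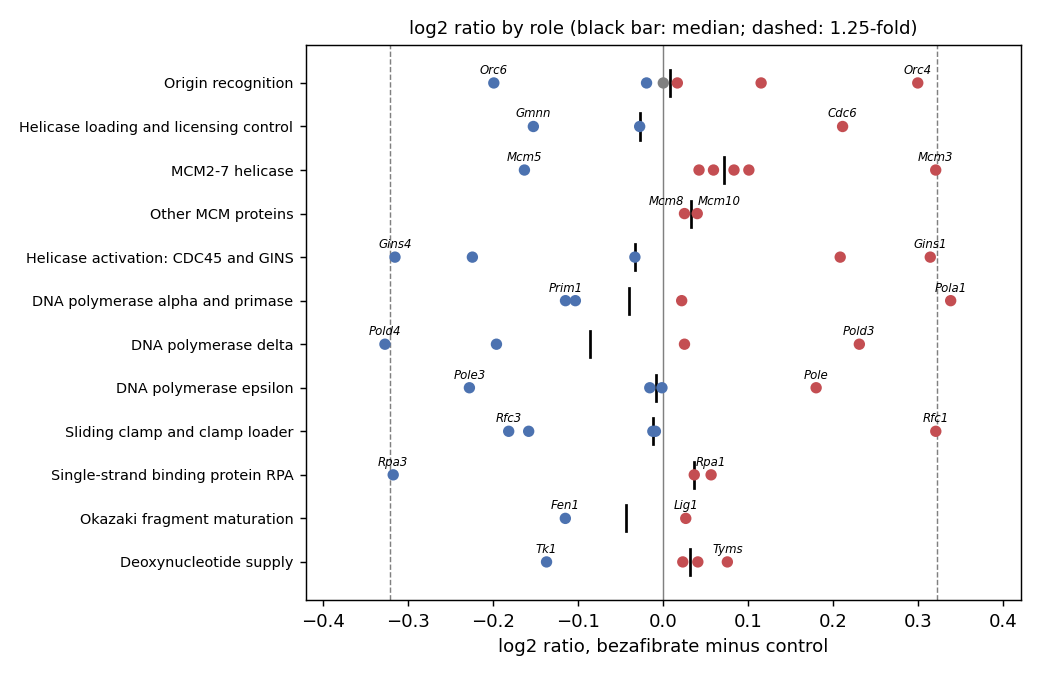
Log2 ratio of bezafibrate over control (horizontal axis) for the 48 replication genes by role, 1 point per gene, red above 0 and blue below 0, with a black bar at each median, dashed lines at the 25% limit and the extreme genes of each role named. The medians of the 12 roles lie between −0.09 and 0.07, and Pola1 on the right and Pold4 on the left are the points beyond the dashed lines.

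Of the 5 genes with another probe set, the second set gave the same sign in Fen1, Rpa3 and Pole (4.45 and 4.56, a ratio of 0.11), and the opposite sign in Rpa1 (4.33 and 4.11) and Rrm2 (4.81 and 4.52). The second sets of Pole, Rpa1 and Rrm2 lay below the floor on both arrays.

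The ratios of the replication genes followed gene length. Length was examined because earlier results of these data had shown lower ratios in short genes. The replication genes were chosen by name and not by length. Across the 48 genes, Spearman's rho between ratio and the length of the gene in RefSeq was 0.62, and Pearson's r with the logarithm of length was 0.61. Among 11424 genes above the floor with a known length rho was 0.28 and r 0.17. All points come from the same 2 arrays, and no p is given. Among the 16 shortest genes, from 1.22 to 10.6 kb, 13 were lower and 3 higher. Their median was −0.16. Of all genes above the floor in that length range 66.6% were lower, and their median was −0.09. Among the 16 longest, from 28.1 to 328 kb, 12 were higher, 3 lower and 1 equal, with a median of 0.07. Of all genes in that range 63.9% were higher, and their median was also 0.07.

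Within some complexes the longer genes were the higher ones. Pola1 spans 328 kb, Rfc1 76.8 kb and Pole 51.2 kb, whereas Pole3 spans 1.22 kb, Pold4 1.74 kb and Rpa3 3.21 kb. Prim2, at 216 kb, was long and lower. MCM2-7 did not run this way, since the shortest gene, Mcm7 (7.53 kb), was higher and Mcm5 (19.0 kb) was the lower one. Mcm3 (17.3 kb), Gins1 (21.7 kb) and Gins4 (11.1 kb) were of middle length and had ratios among the largest in size.

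To adjust for level and length, each gene was set against the median ratio of all genes in its class, from 10 classes of level by 10 of length. The 48 adjusted ratios had a median of 0.00, with 26 above 0 and 22 below, and their standard deviation was 0.14. The rho with length was then 0.21. The remaining ratios were highest for Mcm3 (0.34) and Gins1 (0.32) and lowest for Gins4 (−0.28) and Prim2 (−0.22). Pola1 was then at 0.22, Rfc1 at 0.22, Pold4 at −0.15 and Rpa3 at −0.14, so the ratios of Mcm3, Gins1 and Gins4 moved least among those named. With 20 classes of length alone, over dim and bright genes together and chosen after seeing the data, Pola1 was at 0.33 and Pold4 at −0.26. Which step of the assay or of the cells ties the ratio to length was not tested.

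**Figure D3:**
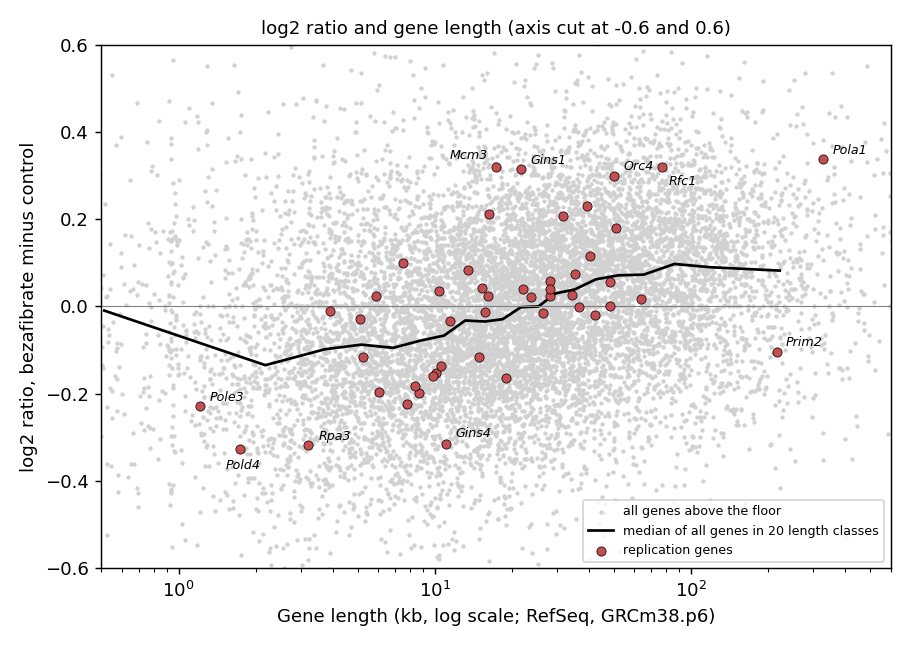
Log2 ratio of bezafibrate over control (vertical axis) against gene length in kb (logarithmic horizontal axis) for the 48 replication genes, in red, over all genes above the floor, in grey, with the black line joining the medians of all genes in 20 length classes; grey points beyond the ends of either axis are not shown. The short genes Pole3, Pold4 and Rpa3 sit low and the long genes Rfc1 and Pola1 high, with Prim2 as a long gene below 0.

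Ratios were set beside the promoter letters. The 17 genes with the E2F letters had a median ratio of 0.02, with 10 higher and 6 lower, and the 23 genes with an entry but without these letters had a median of 0.02, with 12 higher and 11 lower. With the CCAAT box, 25 genes had a median of 0.04, and without it 15 had 0.00. With the CHR element, 5 genes had a median of −0.03 (2 higher and 3 lower), and without it 35 had 0.02 (20 higher and 14 lower). In the windows printed above, Mcm3 and Mcm7 were higher and Mcm5 and Rfc3 lower, with 2 matches in each.

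Other genes of the pathway were taken from lists that hold none of the 48. Of 68 listed, 62 were measured and above the floor, and 42 of them (67.7%, beside 48.5% of all genes) were higher, 19 lower and 1 equal, with a median of 0.07 that lay between 0.0589 and 0.105 under 4 other scalings. Adjusted for level and length, 37 were higher and 23 lower; their median length is 27.7 kb, beside 16.8 kb for the 48. These lists were drawn up with earlier results of these data known. By the 25% limit 3 were higher (4.84%, beside 5.83% of all genes) and 0 lower, a share near the background. Genes of fork protection and alternative clamp loading had 13 higher and 3 lower of 16, with a median of 0.14 (0.12 to 0.13 under the other scalings). Dscc1, part of the clamp loader that serves sister chromatid cohesion, was at 6.31 and 6.73 (ratio 0.41, 1.33-fold). Atad5, which unloads PCNA, was at 7.26 and 7.58 (0.33), and Clspn, the checkpoint mediator claspin, at 7.87 and 8.17 (0.30). The lowest of the list was Rnaseh2b, a ribonuclease H2 subunit, at −0.15.

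Origin firing genes had 8 higher and 3 lower of 11, with a median of 0.12, or 0.05 once adjusted for level and length. Recql4, a helicase of the firing step, was at 6.01 and 6.42 (ratio 0.41, 1.33-fold), and Cdc7, the kinase that activates the MCM ring, at 7.56 and 7.43 (−0.13). The E2F and RB family had 11 higher, 4 lower and 1 equal of 16, with a median of 0.05. E2f1, an activator, was at 7.36 and 7.33, E2f5 at 5.25 and 5.56 (0.30) and the repressor E2f4 at 9.89 and 9.71 (−0.18). Chromatin replication genes had 4 higher and 5 lower of 9, from Asf1b, a histone chaperone (−0.20), to Dnmt1, the maintenance methyltransferase (0.26). Other nucleotide supply genes had 6 higher and 4 lower of 10 and stayed between −0.09 (Tk2) and 0.15 (Ctps); the counts became 4 and 5 with the adjustment.

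Beside these, 23 mitosis genes had a median of 0.04, with 13 higher and 10 lower, from Ccnb2, a mitotic cyclin (−0.18), to Cenpe, a kinetochore motor (0.31). Histone genes, whose products package the new DNA, went the other way. The rule for the numbered histone clusters found 26 genes. They encode H1, H2A, H2B and H4, and no H3 gene of these clusters had a probe set of its own. Of the 26 genes, 17 were above the floor, of which 15 were lower and 2 higher under all 5 scalings. That is 11.8% higher in the deposited values, beside 48.5% of all genes above the floor. Their median was −0.28, or −0.26 once adjusted. They ranged from H2bc9 (−0.95) to H2ac1 (0.29), and 3 differed at least 1.5-fold, namely H2bc9, H1f1 and H2bc21. H2bc9 (5.72 and 4.76), H2bc21 (4.92 and 4.16) and H2bc14 (4.99 and 4.83) passed the floor on the control array only. These genes were therefore counted only through the array where they were brighter. Their median length is 0.493 kb, and near-identical copies can share probes, so single histone genes are uncertain. The difference between the histone and replication genes was not tested.

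**Figure D4:**
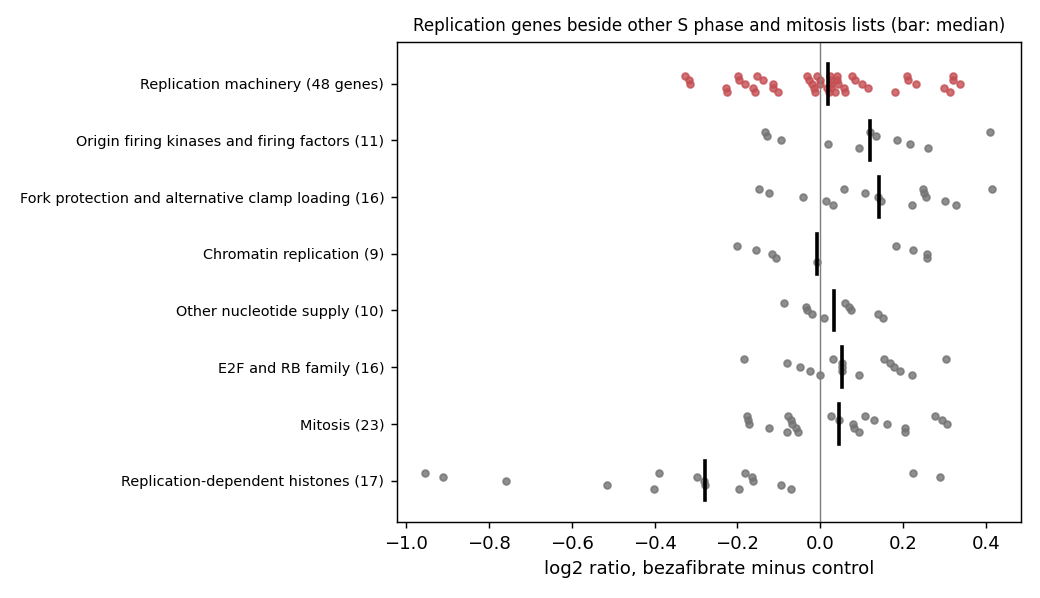
Log2 ratio of bezafibrate over control (horizontal axis) for the 48 replication genes, in red, and for the genes above the floor of other S phase and mitosis lists, in grey, 1 point per gene with the number of genes in parentheses and a black bar at each median. The median is 0.02 for the replication genes, 0.14 for fork protection and −0.28 for the histones.

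The labelled cell type was checked on marker genes. All 9 measured CD8 T cell markers were above the floor, at 8.70 to 11.33 in control and 8.56 to 11.26 with bezafibrate. Of these markers 8 were lower, beside 49.7% of all genes above the floor. The median of the 9 was −0.14, or −0.01 once adjusted for level and length. Markers were also listed for other cell types, though such a marker need not be restricted to its cell type. Of these, 2 of 4 CD4 T cell, 2 of 5 B cell and 2 of 4 natural killer cell markers were above the floor. So were 1 of 6 macrophage and 1 of 5 dendritic cell markers. In the natural killer list these were Eomes and Fcer1g, while Ncr1 (3.16 in control) and Klrb1c (4.26 in control) lay below the floor. Of the 8 markers in these lists above the floor, 4 were lower, namely Fcer1g (ratio −0.93), Cd79b (−0.55), Cd209a (−0.45) and Ighm (−0.33). The 4 higher ones were Zbtb7b (0.27), Foxp3 (0.07), Eomes (0.03) and Cd68 (0.01). In control, Eomes (10.56), Ighm (9.05) and Cd209a (9.00) lay within the range of the CD8 markers. Cd68 (6.91), Fcer1g (6.57), Cd79b (5.41), Zbtb7b (5.22) and Foxp3 (4.95) were dimmer. Foxp3 in control and Cd79b with bezafibrate (4.85) were near the floor. The part of other cells in the ratios was not tested.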

How the data were processed

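Total RNA of 1 culture per group was read on an Affymetrix gene array after whole-transcript amplification and biotin labelling, per the labels' protocols. The authors deposited log2 signals from RMA, and the submitters' processing notes name Affymetrix Expression Console; no version or build is named. RMA equalises the arrays, so a change shared by most genes is removed, and shrinks differences at low signal. The log2 scale was inferred from the range of the values.

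Of 41801 probe sets, 33793 held values and 23521 of those named 1 gene in the platform annotation. The probe set with the highest mean stood for each of the 22180 genes. The floor was the median of each array over these genes, and the brighter array of a gene had to pass it. Lengths are gene spans from RefSeq (GRCm38.p6), found for 99.8% of genes. Level and length were adjusted by subtracting the median ratio of 10 by 10 classes. With 1 array a group no test was made and no depth applies; the number of arrays limits the precision. Every replication gene is named; of the other lists, the genes at the ends are named, and Atad5, Clspn and E2f1 were chosen after their values were seen. Genes, lists and the histone rule were chosen with earlier results of these data known. The fold count and the class subtraction were run on simulated data with planted changes of 1.5-fold and 2-fold. The simulated noise was smaller than the real spread of ratios, a standard deviation of 0.22 over all genes above the floor. Unchanged genes past the limit were not counted, so the simulation cannot say how often the 25% limit is passed without a change. Alternatives were other normalizations, floors, fold limits and probe set rules. Python 3.11.15, numpy 2.4.6, pandas 2.3.3, scipy 1.17.1, statsmodels 0.14.6 and matplotlib 3.10.9 were used.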

Additional observations from a re-analysis of the deposited data

How the results depend on the processing

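The median ratio of the replication genes lay between 0.00 and 0.02 under every alternative run, and the counts above and below 0 moved by less than 1.5 times. The counts by the 25% limit, 1 higher and 1 lower, depended on the processing. They were 0 and 3 with quantile normalization, 1 and 3 with a loess curve of ratio on level subtracted, 2 and 0 with level and length classes subtracted, and 3 and 0 with length classes alone, which was chosen after seeing the data. Pold4 moved from −0.33 to −0.15 with level and length classes and to −0.26 with length classes, and Pola1 from 0.34 to 0.22 with level and length classes and to 0.32 with quantile normalization; 5 further genes lay just short of the limit. At 1.5-fold and at 2-fold they were 0 and 0. The share of all genes past a limit was counted in the deposited values only. The 13 genes with a ratio of at least 0.2 in size kept their sign in all 6 alternatives that rescale the ratio or choose among probe sets. Over all 48 genes 38 did, and the others were Cdt1, Gins3, Mcm8, Orc3, Orc5, Pcna, Pole4, Rfc2, Rpa1 and Rrm2. No paired analysis was possible because each group is 1 array. With 1 array a group, a ratio cannot be set against the spread between cultures.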

Other observations

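Some probe sets read a replication gene together with another transcript. Mcm7 carries the microRNA genes Mir25 and Mir93 in its introns, and the probe sets that name Mcm7 with Mir25 and with Mir93 had log2 signals of 5.54 and 3.97 in control and 5.83 and 4.11 with bezafibrate. Their ratios were 0.29 and 0.15, beside 0.10 for the probe set of Mcm7 alone. The probe set with Mir93 was below the floor on both arrays. The probe set that names Tyms with its pseudogene Tyms-ps lay below the floor, at 3.71 and 4.02 (ratio 0.31), beside 0.08 for Tyms alone.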
